A study of Mus musculus with 18 samples.

Results

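Interferon-stimulated genes are the genes that cells switch on when interferons, the secreted signals of antiviral defence, reach them. The 35 such genes described here were taken as a list of known members, chosen with earlier results of these data known. All 35 were found among the 55450 genes of the count table. They fall into 6 roles, namely RNA sensors (3 genes), transcription factors (5), antiviral effectors (15), the ISG15 tagging system (2), interferon-inducible GTPases (6) and class I antigen presentation (4). Their mRNA was measured by RNA sequencing of left ventricle (LV).

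The mice were FVB/N males, either wild-type (WT) or with cardiac-specific overexpression of Gαq, the G protein alpha subunit encoded by Gnaq, and the WT mice were littermates of the Gαq mice. From 4 weeks of age they ate control diet (CD) or chow with 0.5 mg/g of ertugliflozin (ERTU), a drug that blocks the renal glucose carrier SGLT2, for 16 weeks, so that hearts were taken at 20 weeks. On CD there were 4 WT and 5 Gαq libraries and on ERTU 5 WT and 4 Gαq libraries, each named here by its group and the number its column carries. The transgene is limited to the heart, and its effects were compared only within this strain.

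Type I interferons bind the receptor chains Ifnar1 and Ifnar2, which act through the kinases Jak1 and Tyk2 on factors such as Stat2. Together with Irf9 these form a complex that binds the interferon-stimulated response element (ISRE), while the main route of interferon gamma leads to the gamma-activated site (GAS). The induced proteins sense viral RNA, block its translation, degrade it, or raise the display of peptides to T cells.

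The stretches before the start sites of 6 members are shown, some for the comparisons described below and others for their motifs. The 6 are Ifit2, the member with the largest difference between the genotypes, its neighbours Ifit1 and Ifit3, the factor Irf8, and Isg15 and Gbp7 as examples of dense and of mixed motifs. Each sequence is the 200 bases just before the start site in the RefSeq promoter table (build GRCm38.p6), written 5′ to 3′ on the strand of the gene. The positions are chr19:34550494-34550693 (plus strand) for Ifit2, chr19:34640689-34640888 (plus) for Ifit1, chr19:34583329-34583528 (plus) for Ifit3, chr8:120736158-120736357 (plus) for Irf8, chr4:156200819-156201018 (minus) for Isg15 and chr3:142530136-142530335 (plus) for Gbp7. Capitals mark letters that match the ISRE pattern (GAAA, any 2 bases, GAAA, on either strand) or the GAS pattern (TTC, any 3 bases, GAA, which reads alike on both strands).
Ifit2: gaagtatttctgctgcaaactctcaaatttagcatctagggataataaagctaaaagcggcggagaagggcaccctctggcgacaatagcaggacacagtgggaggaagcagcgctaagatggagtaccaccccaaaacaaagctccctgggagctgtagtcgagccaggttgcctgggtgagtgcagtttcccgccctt
Ifit1: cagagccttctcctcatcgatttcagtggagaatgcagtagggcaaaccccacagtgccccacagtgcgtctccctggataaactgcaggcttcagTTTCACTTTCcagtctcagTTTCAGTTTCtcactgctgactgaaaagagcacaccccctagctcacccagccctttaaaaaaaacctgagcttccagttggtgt
Ifit3: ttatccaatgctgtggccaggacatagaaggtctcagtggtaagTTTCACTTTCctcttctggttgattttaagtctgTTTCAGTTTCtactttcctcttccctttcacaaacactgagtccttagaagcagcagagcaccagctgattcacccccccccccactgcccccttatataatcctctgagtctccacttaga
Irf8: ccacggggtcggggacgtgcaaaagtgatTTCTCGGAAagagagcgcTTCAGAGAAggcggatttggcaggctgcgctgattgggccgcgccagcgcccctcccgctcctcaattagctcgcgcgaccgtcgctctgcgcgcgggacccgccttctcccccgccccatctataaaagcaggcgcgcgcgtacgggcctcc
Isg15: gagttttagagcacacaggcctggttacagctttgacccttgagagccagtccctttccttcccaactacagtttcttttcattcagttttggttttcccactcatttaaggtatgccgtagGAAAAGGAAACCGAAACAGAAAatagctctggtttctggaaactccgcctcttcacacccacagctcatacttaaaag
Gbp7: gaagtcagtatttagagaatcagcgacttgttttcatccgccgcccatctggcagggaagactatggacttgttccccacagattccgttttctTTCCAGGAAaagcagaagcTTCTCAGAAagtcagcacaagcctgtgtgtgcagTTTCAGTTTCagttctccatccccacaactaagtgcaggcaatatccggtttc

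Ifit1 and Ifit3 each held 2 ISRE matches, whose first bases lay 104 and 85 bases before the start in Ifit1 and 156 and 122 bases before it in Ifit3. Isg15 held 3 ISRE matches that overlap one another, which is why they appear as a single run of capitals. Irf8 held 2 GAS matches, and Gbp7 held 1 ISRE and 2 GAS matches. The window of Ifit2 shown held neither. Ifit2 has 2 starts in the promoter table, and neither full entry (250 bases before to 50 after the start) held an ISRE match. The entry of the start shown held 1 GAS match 241 bases before the start, and that of the other start held none. The rest of Ifit2 and its surroundings were not searched. Of the 29 members with an entry, 16 (55.2%) held an ISRE match and 11 (37.9%) a GAS match, against 3.99% and 9.55% of all 27025 genes in the table, and matches of the 2 patterns that share bases were counted in both. All 5 GTPase genes in the table held an ISRE match. Dhx58, Oas2, Ifi27, Rtp4, Usp18 and Iigp1 had no entry. A match is a run of letters and no evidence of binding.

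Each of the 18 libraries held 15383566 to 20908363 counted read pairs, and levels are given as CPM, the counts scaled to the library total with TMM factors. Gnaq, the overexpressed gene, ran from 45.5 to 230 CPM in WT and from 1641 to 11672 CPM in Gαq libraries, so that no library went against its genotype label. Markers of cardiomyocytes (10 genes) summed to between 50694 and 73050 CPM in every library, and 4 atrial markers to between 2.26 and 703 CPM. The median atrial sum was 34.2 CPM in WT CD, 9.28 CPM in WT ERTU, 19.0 CPM in Gαq CD and 142 CPM in Gαq ERTU. The atrial sums overlapped between the groups, and the part of atrial tissue in the levels of the members was not tested. The study used 4 to 5 hearts a group, so the p-values measure the spread between hearts as prepared and sequenced. In whole LV, fewer cells of a type and less RNA per cell cannot be told apart.

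All 35 genes had enough reads to be tested. Per kilobase of exon, B2m, the light chain of class I molecules, was the most abundant at 253 CPM per kb over the 18 libraries, followed by Ifi27, a small membrane protein, at 20.6 CPM per kb and the GTPase Gbp2 at 15.04 CPM per kb. The lowest were Ifi44 at 0.369, Dhx58 at 0.672, Usp18 at 0.712 and Oas1a at 0.930 CPM per kb. Ifit2 was the most abundant of the Ifit genes at 10.5 CPM per kb, above Ifit3 at 4.17 and Ifit1 at 1.47 CPM per kb. The interferons themselves were almost unread. Of 20 interferon genes, 18 had 0 reads in all 18 libraries, Ifnz had 2 reads in all, and Ifng, encoding interferon gamma, had 10 reads in all and at most 3 in a library.

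The comparison of genotypes asked which members differed between Gαq and WT hearts, with diet in the model. Ifit2 and Irf8 rose in Gαq hearts and the other 33 members did not pass the test. That is 2 of 35 members (5.71%) at an adjusted p under 0.05 in the quasi-likelihood test of edgeR, against 19.6% of the 16270 genes tested (9.72% higher and 9.92% lower). At an unadjusted p under 0.05 there were 5 members, 4 higher and 1 lower, which is 14.3% against 31.9% of all genes. The median log2 difference of the members was 0.012, against 0.0038 for all genes tested, with 18 members above 0 and 17 below (50.6% of all genes above). That median lay below 0 without WT CD 1 or 2, Gαq CD 8 or 10, WT ERTU 11 or 12 or Gαq ERTU 16, and with any 1 library left out it ran from -0.031 to 0.037. The 95% intervals of all 35 lay within a log2 difference of 1 either way, and those of 26 lay within 0.5. The plot of differences by role shows Ifit2 and Irf8 as the only filled points for genotype.

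**Figure D1:**
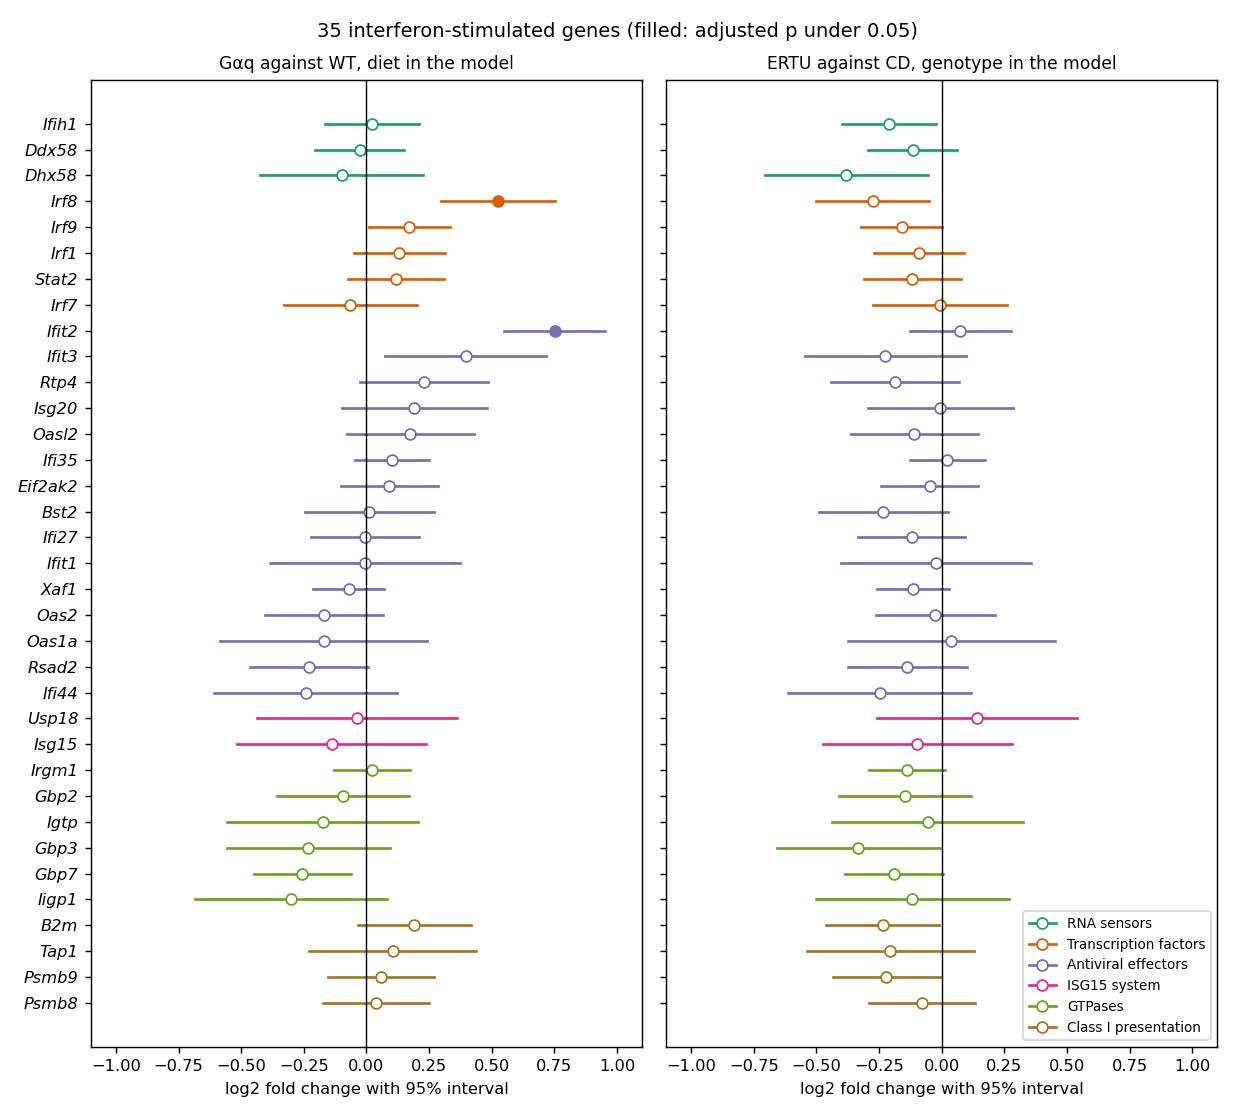
Log2 fold change (x axis) with its 95% interval for each of the 35 members (y axis, coloured by role), on the left for Gαq against WT and on the right for ERTU against CD. Filled points have an adjusted p under 0.05: Ifit2 at 0.75 and Irf8 at 0.52 on the left, none on the right, where 31 of the 35 points lie below 0.

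Among the antiviral effectors, Ifit2, whose product binds RNA and hinders its translation, differed most between the genotypes. Ifit2 stood at 22.8, 26.2, 35.3 and 35.3 CPM in WT CD, 25.2, 29.4, 32.2, 34.1 and 36.9 in WT ERTU, 43.3, 45.4, 49.4, 55.6 and 58.4 in Gαq CD and 48.8, 49, 50.8 and 63.4 in Gαq ERTU. Every Gαq library, at 43.3 CPM or more, lay above every WT library, at 36.9 CPM or less. Ifit2 was the only member with no overlap between the 9 WT and 9 Gαq libraries, which 1.73% of all genes tested showed in this direction. Its rise was 1.68-fold by genotype (log2 difference 0.75 ± 0.10 SE, edgeR adjusted p = 1.06e-05). Within the diets it was also higher, on CD (log2 difference 0.75 ± 0.14 SE, edgeR adjusted p = 0.00206) and on ERTU (log2 difference 0.75 ± 0.14 SE, edgeR adjusted p = 0.00183). The interaction of genotype and diet was -0.0058 with a 95% interval from -0.42 to 0.41 (edgeR adjusted p = 1). The group means of Ifit2 were 29.9 ± 6.395 CPM (SD) in WT CD, 31.6 ± 4.48 CPM in WT ERTU, 50.4 ± 6.48 CPM in Gαq CD and 53 ± 6.96 CPM in Gαq ERTU. Library Gαq ERTU 16 stood apart at 63.4 CPM, and without it the log2 difference on ERTU was 0.65 (edgeR adjusted p = 0.0094).

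Ifit2 (chr19:34550694-34576419, build GRCm38) lies in a cluster with Ifit3 (chr19:34583531-34588731), Ifit1bl1 (chr19:34592891-34601956), Ifit3b (chr19:34607970-34613401) and Ifit1 (chr19:34640871-34650009), all of the same family of RNA-binding proteins. Ifit3 stood at 6.096, 6.31, 8.19 and 8.91 CPM in WT CD, 3.895, 4.79, 5.46, 5.93 and 6.76 in WT ERTU, 5.95, 6.02, 8.34, 10.2 and 10.9 in Gαq CD and 6.48, 7.26, 8.25 and 11.2 in Gαq ERTU. The groups overlapped, with library WT ERTU 13 lowest and Gαq ERTU 16 highest. Its log2 difference by genotype was 0.40 ± 0.15 (SE), with an edgeR adjusted p of 0.0771, and on ERTU 0.62 ± 0.21 (SE), with an adjusted p of 0.078. Whether Ifit3 was called depended on single libraries. Without WT CD 5, Gαq CD 6 or Gαq CD 7 the adjusted p by genotype was 0.0422, 0.0378 or 0.0371, and without WT ERTU 14 that on ERTU was 0.0452.

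Ifit1 stood at 3.01, 3.08, 3.52 and 5.46 CPM in WT CD, 2.69, 2.73, 3.598, 3.93 and 7.13 in WT ERTU, 3.07, 3.29, 4.35, 4.53 and 5.06 in Gαq CD and 3.33, 3.502, 3.77 and 4.14 in Gαq ERTU. WT ERTU 14 was the highest of all 18 libraries, and the genotype groups overlapped widely. The log2 difference of Ifit1 by genotype was -0.0061 ± 0.18 (SE), with a 95% interval from -0.38 to 0.37. Ifit1bl1, on the opposite strand and no member of the list, rose by genotype (log2 difference 0.47, edgeR adjusted p = 0.00979) and on CD (0.63, adjusted p = 0.0279). Reads that map equally to near-identical copies such as Ifit3 and Ifit3b were not counted, so the levels of those genes are uncertain.

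The log2 ratio of Ifit2 to Ifit1 within a library, a measure chosen after the values were seen, averaged 2.97 in WT CD and 3.61 in Gαq CD, and 3.02 in WT ERTU and 3.80 in Gαq ERTU. The differences of 0.64 on CD (exact permutation p = 0.0476) and 0.78 on ERTU (exact permutation p = 0.0159, the smallest that 4 against 5 libraries allow, 2-sided) both had an adjusted p of 0.127 over 8 such ratio tests. The ratio of Ifit2 to Ifit3 was 0.63 higher in Gαq on CD (exact permutation p = 0.0635) and 0.14 higher on ERTU (exact permutation p = 0.429). None of the 8 ratio tests had an adjusted p under 0.05.

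**Figure D2:**
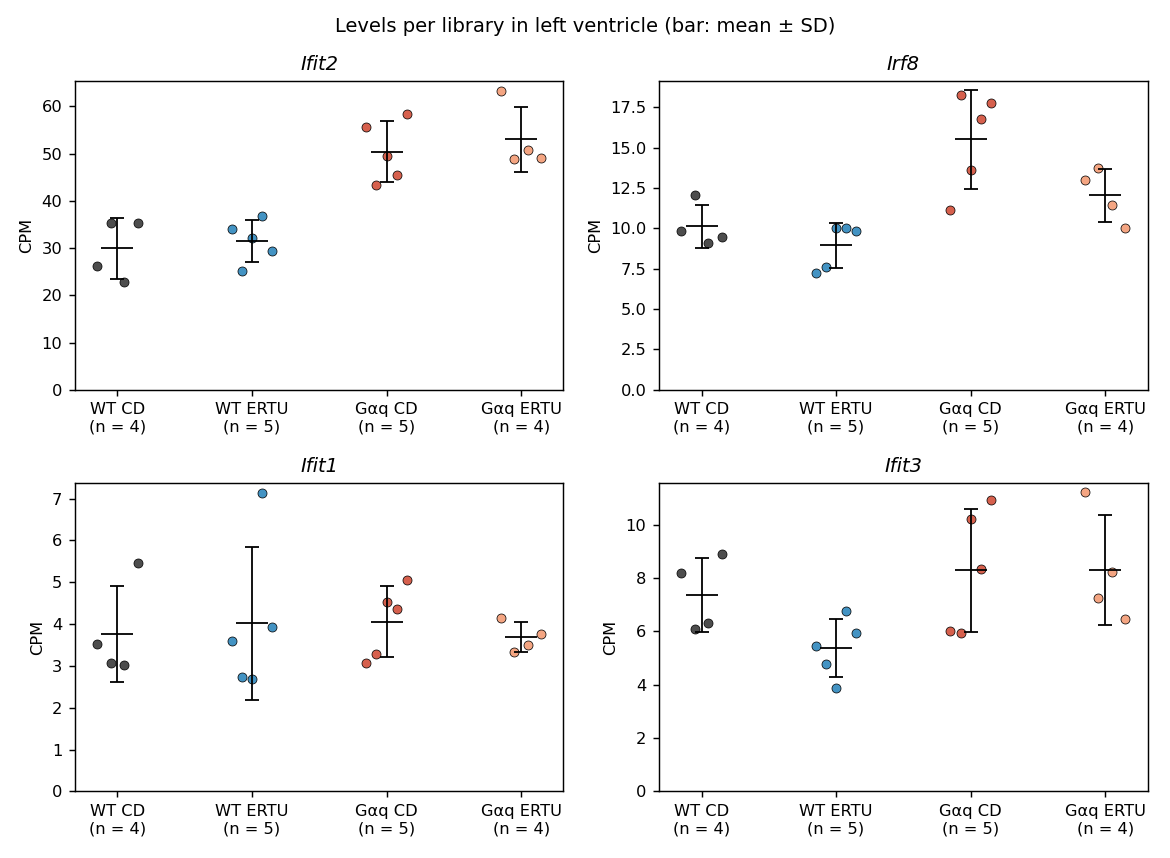
Level in CPM (y axis, from 0) of Ifit2, Irf8, Ifit1 and Ifit3 in each library (points) of the 4 groups (x axis), with the mean ± SD as a bar. All Gαq points of Ifit2 lie at 43.3 CPM or above and all WT points at 36.9 CPM or below, while the groups of Ifit1 and Ifit3 overlap.

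The 14 effectors other than Ifit2 did not pass the test by genotype. Apart from Ifit3, their log2 differences ran from -0.24 for Ifi44, an interferon-induced cytoplasmic protein, to 0.23 for Rtp4, a receptor transport protein. Rsad2 stood at 14.5, 19.3, 23.5 and 25.5 CPM in WT CD, 17.7, 17.8, 17.9, 19.4 and 25.7 in WT ERTU, 13.3, 18, 19.1, 20.2 and 21.8 in Gαq CD and 13.8, 15.6, 16.6 and 18.1 in Gαq ERTU. These levels of Rsad2, or viperin, an enzyme that makes a chain-ending nucleotide, overlapped between the groups, and library WT ERTU 11 was highest. Its log2 difference by genotype was -0.23 ± 0.11 SE, edgeR adjusted p = 0.17. Oas2, which makes the signal that activates RNase L, was at 7.83 ± 1.39 CPM (SD) in WT CD, 8.65 ± 1.303 CPM in WT ERTU, 7.81 ± 0.708 CPM in Gαq CD and 6.81 ± 1.47 CPM in Gαq ERTU. Eif2ak2, or PKR, which stops translation on sensing double-stranded RNA, was at 25.3 ± 4.21 CPM (SD) in WT CD, 26 ± 4.504 CPM in WT ERTU, 28.6 ± 1.93 CPM in Gαq CD and 26 ± 3.39 CPM in Gαq ERTU. Bst2, or tetherin, which holds budding virus at the cell surface, was at 12.2 ± 2.19 CPM (SD) in WT CD, 10.6 ± 1.86 CPM in WT ERTU, 12.5 ± 3.03 CPM in Gαq CD and 10.5 ± 1.48 CPM in Gαq ERTU. The groups overlapped in each of these 3 genes.

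The remaining effectors overlapped between the groups as well. Mean levels of Oas1a, another RNase L activator, ran from 1.55 CPM in Gαq ERTU to 1.99 CPM in WT ERTU, and those of its relative Oasl2 from 8.98 CPM in WT CD to 11.1 CPM in Gαq CD. Isg20, an exonuclease of RNA, ran from 3.58 CPM in WT ERTU to 4.66 CPM in Gαq ERTU. Ifi27 ran from 28.5 to 31.9 CPM, Ifi35 from 21.6 to 23.8 CPM, Ifi44 from 1.69 to 2.43 CPM, Rtp4 from 5.79 to 7.72 CPM and Xaf1, an antagonist of an apoptosis inhibitor, from 10.5 to 11.9 CPM over the 4 group means. Xaf1 also had the smallest spread between libraries of a group of all members (pooled SD 0.11 on the log2 scale), whereas Iigp1 had the largest (0.46). The median SD of the members was 0.26, against 0.23 for all genes tested.

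Among the transcription factors, Irf8, which drives the development of macrophages, dendritic cells and B cells, rose in Gαq hearts. Irf8 stood at 9.09, 9.48, 9.86 and 12.1 CPM in WT CD, 7.26, 7.58, 9.86, 10.02 and 10.04 in WT ERTU, 11.1, 13.6, 16.8, 17.8 and 18.3 in Gαq CD and 10.02, 11.5, 13 and 13.7 in Gαq ERTU. The 3 highest libraries were Gαq CD and the 2 lowest WT ERTU, and the genotype groups overlapped, since WT CD 2 lay above Gαq CD 6 and above 2 of the Gαq ERTU libraries. The rise was 1.44-fold by genotype (log2 difference 0.52 ± 0.11 SE, edgeR adjusted p = 0.00156). On CD it was 1.53-fold (log2 difference 0.62 ± 0.16 SE, edgeR adjusted p = 0.0166), but the call on CD was lost without WT CD 1 (adjusted p = 0.0557), WT CD 4 (adjusted p = 0.0565) or Gαq CD 7 (adjusted p = 0.0506). On ERTU the log2 difference was 0.43 ± 0.16 (SE) with an adjusted p of 0.0996. The difference between these effects was itself tested, as the interaction of genotype and diet, and was -0.19 with a 95% interval from -0.65 to 0.27 (edgeR adjusted p = 1).

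Markers of immune cells were summed to set beside Irf8. The summed level of 12 lymphocyte markers ran from 3.95 to 6.19 CPM in WT CD, 3.24 to 5.18 CPM in WT ERTU, 7.87 to 11.5 CPM in Gαq CD and 5.10 to 9.01 CPM in Gαq ERTU. On CD it was 0.85 log2 units higher in Gαq (exact permutation p = 0.0159) and on ERTU 0.81 higher (exact permutation p = 0.0317), with adjusted p of 0.286 and 0.381 over 36 marker tests. Of the 6 lymphocyte markers with enough reads to test, 2 rose by genotype and 0 fell, against 9.72% of all genes higher. The 12 macrophage markers summed to 405 to 636 CPM in WT CD, 439 to 587 CPM in WT ERTU, 488 to 784 CPM in Gαq CD and 434 to 658 CPM in Gαq ERTU. On the log2 scale that sum was 0.18 higher in Gαq on CD and 0.21 higher on ERTU (2-sided exact permutation p = 0.349 and p = 0.222), and 2 of its 12 markers rose by genotype, beside the same 9.72%. The part of these cells in the levels of Irf8 and Ifit2 was not tested.

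The 4 plasmacytoid dendritic cell markers, of the cells that make the most type I interferon, summed to at most 2.15 CPM in any library. The 6 neutrophil markers summed to 1.28 to 6.46 CPM over the 18 libraries. Fibroblast markers (8 genes) summed to 1488 to 3003 CPM in WT and 2779 to 4150 CPM in Gαq libraries, and 6 of the 8 rose by genotype (9.72% of all genes). No marker of the lymphocyte, macrophage, neutrophil or plasmacytoid dendritic cell lists was at 0 in all 18 libraries. The plot of immune marker sums shows the lymphocyte sum higher in Gαq CD than in all WT libraries.

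**Figure D3:**
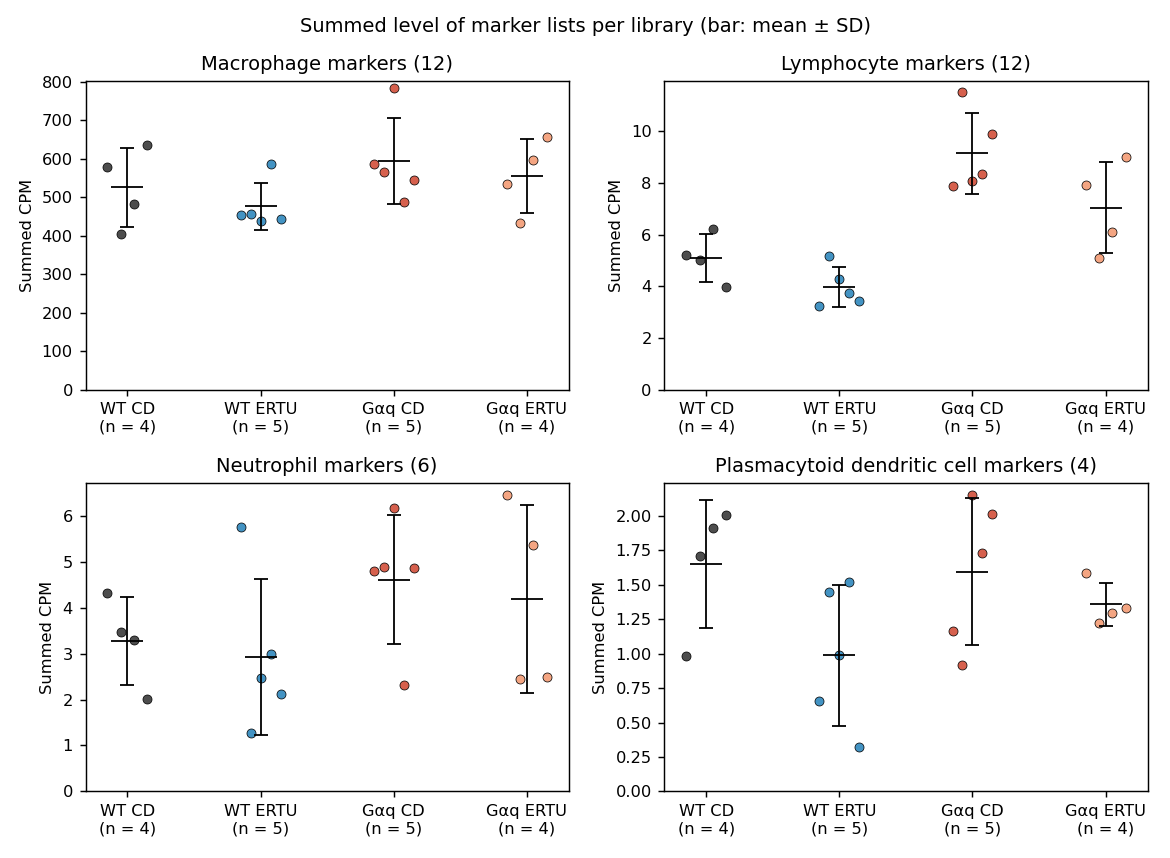
Summed CPM (y axis, from 0) of 4 marker lists in each library (points) of the 4 groups (x axis), with the mean ± SD as a bar. The lymphocyte sums of Gαq CD (7.87 to 11.5 CPM) lie above those of WT CD (3.95 to 6.19 CPM), while the macrophage sums overlap between all groups.

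Irf9, the DNA-binding partner of Stat2, was next among the factors. Irf9 stood at 16.9, 20.9, 21.6 and 21.7 CPM in WT CD, 15.5, 15.9, 17.3, 17.7 and 20.5 in WT ERTU, 18.5, 20.7, 21.2, 22.3 and 26.5 in Gαq CD and 19, 20.1, 20.9 and 21.7 in Gαq ERTU. Gαq CD 10 was highest and WT ERTU 11 lowest, and all 4 groups overlapped. Its log2 difference by genotype was 0.17 ± 0.077 SE, edgeR adjusted p = 0.132. Irf9 shares 123 exonic bases on its strand with Rnf31, and reads there may be split or lost. Irf1 stood at 32.9, 37.4, 44.4 and 46.8 CPM in WT CD, 29.7, 33.6, 41.9, 42.4 and 42.5 in WT ERTU, 36, 43.3, 44.9, 47.7 and 49.7 in Gαq CD and 38.1, 40.2, 43.4 and 44.4 in Gαq ERTU. Irf1, a factor induced by interferon gamma, overlapped in the same way, with WT ERTU 11 again lowest. Its log2 difference was 0.13 ± 0.087 SE, edgeR adjusted p = 0.325. Stat2 was at 22.2 ± 5.31 CPM (SD) in WT CD, 20.04 ± 1.27 CPM in WT ERTU, 23.6 ± 3.84 CPM in Gαq CD and 22.2 ± 0.801 CPM in Gαq ERTU. Irf7, which amplifies the type I response, was at 7.69 ± 1.51 CPM (SD) in WT CD, 7.02 ± 1.63 CPM in WT ERTU, 6.74 ± 1.399 CPM in Gαq CD and 7.33 ± 0.913 CPM in Gαq ERTU, with a 95% interval of the genotype difference from -0.33 to 0.20.

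Of the RNA sensors, none passed the test by genotype. Dhx58 (LGP2), Ddx58 (RIG-I) and Ifih1 (MDA5) bind foreign RNA in the cytoplasm. Dhx58 stood at 2.42, 2.85, 2.89 and 3.08 CPM in WT CD, 1.11, 1.68, 1.93, 1.97 and 2.41 in WT ERTU, 1.79, 1.97, 2.15, 2.56 and 2.705 in Gαq CD and 1.58, 1.83, 2.13 and 2.53 in Gαq ERTU. The 4 WT CD libraries were narrowly above all 5 WT ERTU libraries, and the Gαq libraries overlapped both. Ddx58 stood at 17.4, 18.1, 21 and 23.6 CPM in WT CD, 16.4, 20.9, 20.9, 21.2 and 23.6 in WT ERTU, 18.8, 20.04, 22.9, 23.7 and 23.9 in Gαq CD and 17, 18.2, 18.5 and 18.8 in Gαq ERTU. The Gαq ERTU libraries lay closest together, within the range of the WT ERTU libraries. Ifih1 stood at 9.52, 10.8, 12.2 and 14.2 CPM in WT CD, 8.64, 8.97, 10.6, 11.2 and 12.8 in WT ERTU, 11.1, 12.1, 12.6, 12.6 and 13 in Gαq CD and 9.38, 9.42, 11 and 11.2 in Gαq ERTU. All groups overlapped, with WT CD 5 highest. The log2 differences by genotype were -0.10 for Dhx58, -0.028 for Ddx58 and 0.022 for Ifih1, with edgeR adjusted p of 0.714, 0.861 and 0.894.

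In the ISG15 system, Isg15, a ubiquitin-like tag, and Usp18, the protease that removes it and also blocks the type I receptor, were low in every heart. Isg15 stood at 1.88, 2.36, 2.51 and 3.01 CPM in WT CD, 1.92, 1.98, 2.23, 2.77 and 3.51 in WT ERTU, 1.73, 1.78, 2.01, 2.61 and 3.84 in Gαq CD and 1.497, 1.92, 2.298 and 2.56 in Gαq ERTU. These levels rested on 27 to 82 reads a library, and Gαq CD 10 was highest. Usp18 stood at 1.73, 1.77, 1.97 and 2.26 CPM in WT CD, 1.28, 1.87, 2.15, 2.22 and 3.03 in WT ERTU, 1.19, 1.83, 1.91, 1.98 and 2.34 in Gαq CD and 1.19, 1.83, 1.89 and 3.31 in Gαq ERTU. Usp18 rested on 20 to 72 reads a library, and Gαq ERTU 20 was highest while all groups overlapped. The 95% intervals of the genotype difference ran from -0.52 to 0.24 for Isg15 and from -0.44 to 0.36 for Usp18.

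The interferon-inducible GTPases attack the vacuoles that hold intracellular microbes. None of the 6 passed the test by genotype, 5 of the 6 log2 differences were below 0, and their median was -0.20. Gbp7 stood at 30.2, 33, 34.7 and 41 CPM in WT CD, 23.4, 30.9, 31.9, 32.8 and 39.4 in WT ERTU, 27, 27.7, 27.7, 33.2 and 35.6 in Gαq CD and 21.5, 25, 26.2 and 29.3 in Gαq ERTU. Gαq ERTU 16 and WT ERTU 11 were lowest and WT CD 5 highest, and the groups overlapped. Its log2 difference by genotype was -0.26 ± 0.093 SE, edgeR adjusted p = 0.0596, and this became a call without WT CD 1 (adjusted p = 0.0421), Gαq CD 10 (0.0335), WT ERTU 11 (0.0211) or Gαq ERTU 17 (0.0484). Gbp7 shares 637 exonic bases on its strand with the gene model Gm43802. Gbp3 stood at 12.9, 15.8, 21.1 and 21.3 CPM in WT CD, 9.53, 12.2, 12.5, 15.2 and 24.6 in WT ERTU, 11.1, 15.6, 16.9, 17.7 and 17.9 in Gαq CD and 10.5, 11, 11 and 15.5 in Gαq ERTU. Its WT ERTU libraries spread the most, from 9.53 to 24.6 CPM, and held both the lowest and the highest value.

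Iigp1 stood at 23.7, 34.3, 68.2 and 70.8 CPM in WT CD, 39.5, 41.5, 41.6, 42.8 and 43.9 in WT ERTU, 21.2, 29.3, 37.4, 38.9 and 57.3 in Gαq CD and 30.4, 37.9, 38 and 41 in Gαq ERTU. Iigp1, an immunity-related GTPase, varied most within WT CD, where 2 libraries were far above the other 2. Its log2 difference by genotype was -0.30 ± 0.18 SE, edgeR adjusted p = 0.28. Gbp2 was at 39.4 ± 6.74 CPM (SD) in WT CD, 38.3 ± 10.7 CPM in WT ERTU, 39.6 ± 7.72 CPM in Gαq CD and 33.4 ± 2.57 CPM in Gαq ERTU. Igtp, of the immunity-related family, was at 12.6 ± 3.59 CPM (SD) in WT CD, 12.4 ± 3.31 CPM in WT ERTU, 11.4 ± 3.82 CPM in Gαq CD and 10.7 ± 3.16 CPM in Gαq ERTU, and it shares 162 exonic bases on its strand with Irgm2. Irgm1, a regulator of that family, was at 27.9 ± 3.65 CPM (SD) in WT CD, 25.7 ± 2.46 CPM in WT ERTU, 28.6 ± 3.28 CPM in Gαq CD and 25.8 ± 1.25 CPM in Gαq ERTU.

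For class I presentation, none of the 4 members passed the test by genotype, and all 4 log2 differences were above 0, with a median of 0.081. B2m stood at 181, 201, 218 and 238 CPM in WT CD, 127, 181, 198, 220.4 and 238 in WT ERTU, 221, 226, 238, 297 and 314 in Gαq CD and 180.2, 191, 220.0 and 222 in Gαq ERTU. Gαq CD held the highest values, in libraries 7 and 10, and WT ERTU 11 was lowest, but all groups overlapped. Its log2 difference was 0.19 ± 0.11 SE, edgeR adjusted p = 0.24. Tap1 stood at 11.3, 16, 16.6 and 26.1 CPM in WT CD, 13.6, 14.8, 15.2, 17.1 and 20.6 in WT ERTU, 10.9, 19.4, 21.6, 22.5 and 26.1 in Gαq CD and 12.9, 14.1, 18.6 and 19.7 in Gαq ERTU. Tap1, a chain of the peptide transporter, was lowest in Gαq CD 8 and highest in WT CD 5. Psmb9 stood at 12.7, 12.8, 13.2 and 13.9 CPM in WT CD, 8.16, 10.2, 11.7, 12.6 and 12.8 in WT ERTU, 10.9, 11.2, 13.5, 14.3 and 17.3 in Gαq CD and 10.1, 10.6, 12.5 and 13.8 in Gαq ERTU. Psmb9, a catalytic subunit of the immunoproteasome, was highest in Gαq CD 10 and lowest in WT ERTU 11. Psmb8, another such subunit, was at 24.8 ± 3.56 CPM (SD) in WT CD, 23.5 ± 3.82 CPM in WT ERTU, 25.4 ± 5.13 CPM in Gαq CD and 24.1 ± 2.705 CPM in Gαq ERTU. Exons of Psmb9 and Tap1 share 212 bases on opposite strands, and the methods give same strand as a setting of the counting without saying whether reads of the opposite strand were dropped, so these levels are uncertain.

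Within each diet the calls were few. On CD, 2 of 35 members were called, Ifit2 and Irf8, against 8.1% of all genes (4.0% higher). On ERTU, 1 of 35 was called, Ifit2, against 8.17% of all genes (3.93% higher). Ifit2 was again the only member whose groups did not overlap, on CD (4.7% of all genes showed this upward) and on ERTU (5.4%). The means compared on CD and on ERTU come from different libraries, but both tests share 1 estimate of the spread from all 18 libraries. They are thus not independent of each other, and each shares its libraries with the comparison by genotype.

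The comparison of diets asked whether ERTU treatment moved the members, with genotype in the model. None of the 35 was called, and 0 of the 16270 genes tested were (0.0%) in edgeR. With DESeq2, 0 members were called as well, against 2 of all 30749 genes. At an unadjusted p under 0.05 there were 6 members, all lower with ERTU, which is 17.1% against 7.7% of all genes (4.31% lower). They were Dhx58, Ifih1, Irf8, Gbp3, B2m and Psmb9, with log2 differences of -0.38, -0.21, -0.28, -0.33, -0.24 and -0.22, with edgeR adjusted p from 0.639 to 0.64. Their values per library are given above, and in each the CD and ERTU libraries overlapped.

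Of the 35 log2 differences by diet, 31 were below 0, with a median of -0.12, against 8220 of 16270 (49.5% above 0) and a median of -0.0017 for all genes. All 3 sensors, all 5 factors, all 6 GTPases and all 4 class I genes were below 0, as were 12 of the 15 effectors. The exceptions were Ifit2, Ifi35, Oas1a and Usp18, at 0.074, 0.022, 0.039 and 0.14. The members did not vary independently of each other, as the values by library below show, and no test was made of the count. Markers of some other cells lay below 0 as well. Below 0 were 6 of the 6 lymphocyte markers tested (median -0.37) and 10 of the 12 macrophage markers (median -0.16). So were 7 of the 8 fibroblast markers (median -0.25). Of these 3 lists, 2, 3 and 4 markers had an unadjusted p under 0.05 in edgeR, all of them lower. These are 33.3%, 25% and 50% of the markers tested, against 7.7% of all genes (4.31% lower). The 3 neutrophil and 2 plasmacytoid dendritic cell markers tested also lay below 0. Of the 8 endothelial markers, 5 lay below 0 and 3 above (median -0.033). Above 0 were 7 of the 10 cardiomyocyte markers, the 3 atrial markers tested (median 0.053) and the 3 fat markers tested (median 1.09). No marker of these lists was called by diet in edgeR, and the part of these cells in the levels of the members was not tested. The 95% intervals of all 35 members lay within a log2 difference of 1, and those of 27 within 0.5.

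In WT hearts alone, 0 of 35 members were called with ERTU (0.0% of all genes) in edgeR and 0 in DESeq2 (0 of all 30758 genes). At an unadjusted p under 0.05 were 2 members, Dhx58 (log2 difference -0.62, 1.54-fold lower) and Ifit3 (-0.46), against 2.24% of all genes (1.44% lower). Dhx58 was the only member with no overlap between WT CD and WT ERTU, which 0.43% of genes showed downward, and it rested on 20 to 55 reads a library. In Gαq hearts, 0 of 35 were called (0.00615% of all genes, which is 1 gene) in edgeR and 0 in DESeq2 (4 of all 30758 genes). At an unadjusted p under 0.05 were 3 members, B2m (-0.35), Irf8 (-0.37) and Ddx58 (-0.27), against 7.62% of all genes (4.09% lower). The median log2 difference was -0.086 in WT, with 24 of 35 below 0 where 51.5% of all genes lay above 0, and -0.16 in Gαq, with 31 of 35 below 0 where 48.9% of all genes lay above 0. The WT value depended on single libraries. The median was -0.0058, with 18 of 35 below 0, without WT CD 5, and -0.042, with 21 below 0, without WT ERTU 11. It was -0.15, -0.13 and -0.14 without WT CD 1, WT ERTU 14 and WT ERTU 15. In Gαq the median ran from -0.22 to -0.12 with 1 library left out, with 26 to 31 members below 0.

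Whether the response to ERTU differed between the genotypes was tested as an interaction. None of the 35 members passed in edgeR (0.0% of all genes) or in DESeq2 (0 of all 30758 genes). In edgeR none had an unadjusted p under 0.05, which 1.92% of all genes had. The widest values were -0.51 for Ifi44 and 0.48 for Dhx58 on the log2 scale. The 95% intervals of 28 members lay within a difference of 1, and those of 10 within 0.5.

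Within a group, libraries differed in the level of the members as a whole. In Gαq CD 10, 33 of the 35 members lay above their group mean, with a median of 0.22 log2 units, whereas 50.2% of all genes did so in that library. In WT CD 5 and WT ERTU 15 the members above were 31 and 30. In WT CD 1 only 7 of the 35 lay above the group mean (median -0.19), in WT ERTU 11 and 12 there were 8 each (medians -0.20 and -0.13), in Gαq ERTU 18 also 8, and in Gαq CD 6 there were 10 (median -0.22). The shares of all genes above the group mean in the 18 libraries ran from 47.8% to 52.2%. The GTPases and class I genes lay on the same side of their group means in several of these libraries. All 6 GTPases and all 4 class I genes were above their group mean in Gαq CD 10 and in WT ERTU 15, and none of either in WT CD 1 or WT ERTU 11. Ifit2 and Rsad2, at 34.1 and 25.7 CPM, were 2 of the 8 members above their group mean in WT ERTU 11. Cell markers differed between these libraries too. The median deviation of the 8 endothelial markers from the group mean, in log2 units, was 0.24 in WT CD 5 and 0.16 in Gαq CD 10, and -0.18 in WT CD 1, -0.15 in WT ERTU 11 and -0.24 in Gαq CD 6, on the same side as the members. It was -0.0052 in WT ERTU 15, 0.048 in WT ERTU 12 and 0.20 in Gαq ERTU 18. In WT CD 5, 9 of the 10 cardiomyocyte markers lay below the group mean (median -0.35) and 11 of the 12 macrophage markers above it (median 0.27). All 8 fibroblast markers (median 0.45) and the 3 atrial markers tested (median 3.73) also lay above it in that library. Its atrial sum of 223 CPM was the highest of WT CD. The 6 lymphocyte and 3 neutrophil markers tested lay below the group mean there. Elsewhere the macrophage and fibroblast medians were -0.13 and -0.34 in Gαq CD 10 and -0.050 and 0.0089 in WT ERTU 15. They were 0.12 and 0.049 in WT CD 1, -0.14 and -0.30 in WT ERTU 11 and -0.036 and -0.0095 in WT ERTU 12. In Gαq CD 6 they were -0.0028 and -0.15, and in Gαq ERTU 18 they were 0.11 and -0.042. The part of these cells in the levels of the members was not tested. The heat map of members by library sets each value against the mean of all 18 libraries, not that of its group.

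**Figure D4:**
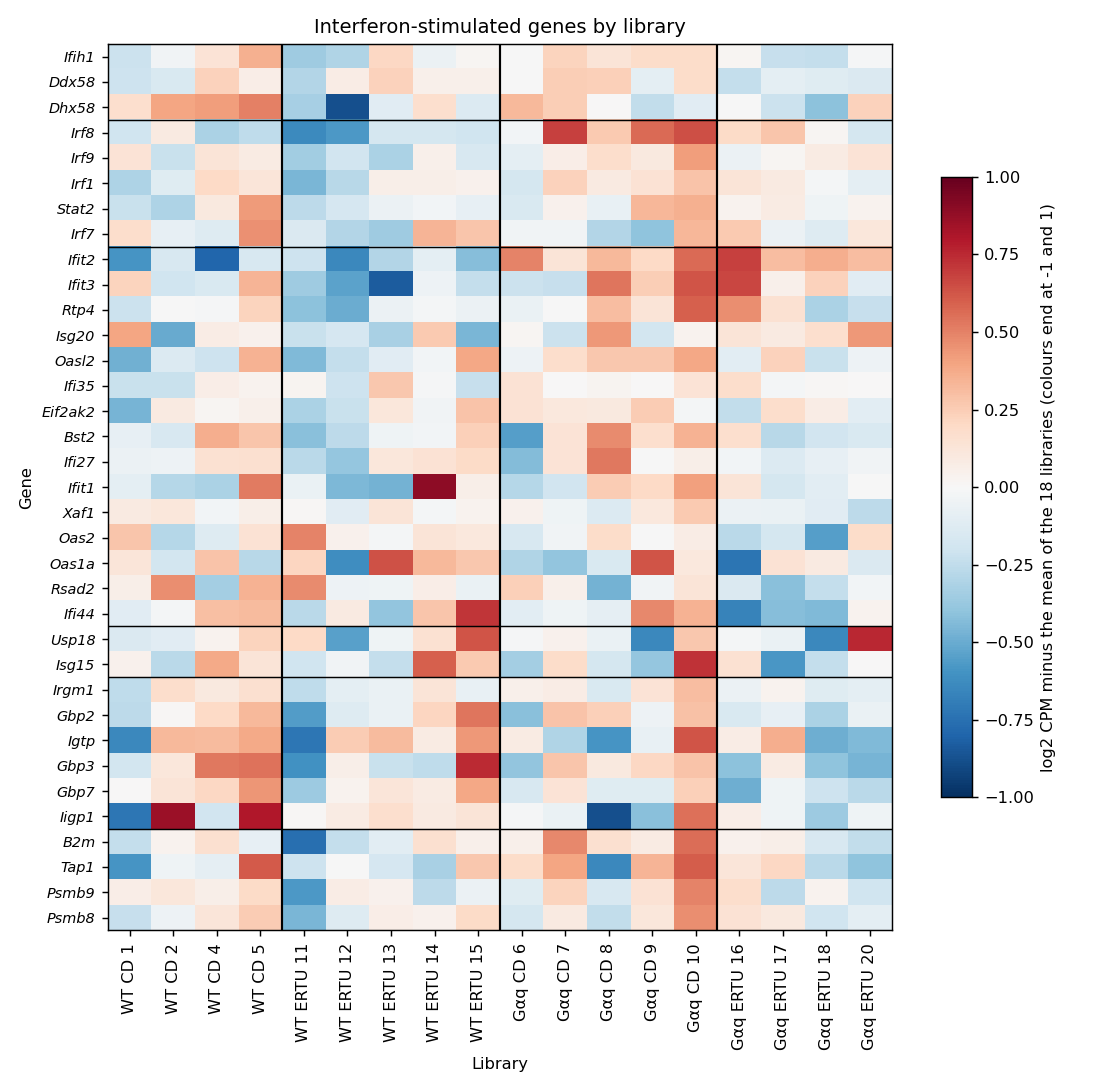
Log2 CPM of each member (rows, grouped by role) minus its mean over the 18 libraries, in each library (columns, with black lines between the groups). Red is higher and blue lower, with colours ending at -1 and 1. Most rows are red in Gαq CD 10 and WT CD 5 and blue in WT ERTU 11, and the row of Ifit2 is blue or near white in WT and red in Gαq libraries.

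The rest of the pathway was covered by a list of 115 genes that are no members, chosen by function, of which 90 were tested. By genotype 14 of these were called, 6 higher and 8 lower, which is 15.6% against 19.6% of all genes. Of 6 receptor chains, 1 was called, Ifngr1, the ligand-binding chain of the interferon gamma receptor, which rose by 0.29 on the log2 scale (edgeR adjusted p = 0.0156). Of 6 genes of signalling, 1 was called, Jak1, the kinase shared by both receptors. It fell from 357 ± 61.5 CPM (SD) to 197 ± 6.38 CPM on CD and from 324 ± 52.1 CPM to 197 ± 10.7 CPM on ERTU (log2 difference -0.79, edgeR adjusted p = 9.6e-07). All Gαq libraries of Jak1, at 210.5 CPM or less, lay below all WT libraries, at 242 CPM or more, which 1.83% of all genes showed in this direction.

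Of 12 genes of nucleic acid sensing, 2 were called (16.7%, against 19.6% of all genes called by genotype). Mavs, the mitochondrial adaptor of Ddx58 and Ifih1, fell by 0.38 on the log2 scale (edgeR adjusted p = 0.0107), and Ikbke, a kinase that activates Irf3, rose by 0.45 (adjusted p = 0.0475) at 2.41 to 3.69 CPM. Of 7 inhibitors tested, 1 was called (14.3%, against the same 19.6%). It was Nlrx1, a mitochondrial brake on Mavs signalling, which fell by 0.49 (adjusted p = 0.0025). Of 32 further effectors tested, 4 were called (12.5%, against the same 19.6%). Helz2, a helicase, fell by 0.34 (adjusted p = 0.00959). Ifit1bl1, Parp9 and Tor3a rose by 0.47, 0.24 and 0.27 (adjusted p = 0.00979, 0.0222 and 0.0428), of which Tor3a was named after its value was seen.

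Of 14 further GTPases, 3 were called and all fell, which is 21.4% against 19.6% of all genes called by genotype (9.92% lower). Gbp10 was at 9.22 ± 2.705 CPM (SD) in WT CD, 12.1 ± 4.76 CPM in WT ERTU, 3.29 ± 0.893 CPM in Gαq CD and 3.84 ± 0.982 CPM in Gαq ERTU, 2.97-fold lower in Gαq by genotype (log2 difference -1.57, edgeR adjusted p = 6.4e-06), and Gbp6 was lower by 0.94 log2 units (adjusted p = 0.00922) at 1.11 to 2.73 CPM. Gbp10 and Gbp6 share 1792 and 1726 exonic bases on their strand with the gene model Gm43302, and reads of such copies are uncertain. Ifi47 fell by 0.48 (adjusted p = 0.0414). Of 13 further class I genes, 2 were called (15.4%, against the same 19.6%). Psme1, a proteasome activator subunit, fell by 0.51 (adjusted p = 3.91e-05) and Psmb10, the other inducible proteasome subunit, rose by 0.20 (adjusted p = 0.0302).

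On CD, 5 of the 90 were called, 1 higher and 4 lower, against 4.1% of all genes lower, and on ERTU 4, all lower, against 4.24%. The plot of pathway lists shows calls on either side of 0. By diet, 0 of the 90 were called in edgeR, with 9 at an unadjusted p under 0.05 (8 lower), against 7.7% of all genes (4.31% lower). Of the 90 log2 differences 63 were below 0, against 8220 of 16270 for all genes.

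**Figure D5:**
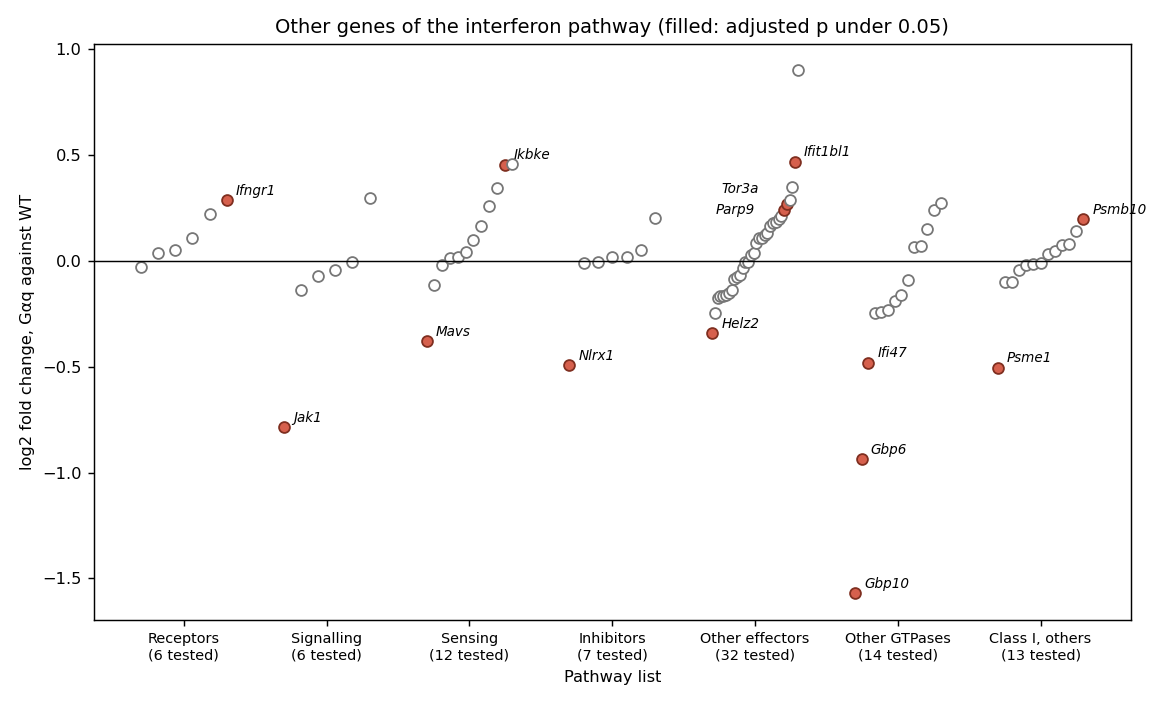
Log2 fold change of Gαq against WT (y axis) for 90 pathway genes that are no members, by list (x axis). Filled and named points have an adjusted p under 0.05: 6 above 0, led by Ifit1bl1 at 0.47, and 8 below, down to Gbp10 at -1.57.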

How the data were processed

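The authors deposited raw counts of read pairs per Ensembl gene for 18 LV libraries (poly(A)-selected, NEBNext Ultra II, paired-end). Per the methods and the submitters' processing notes, reads were aligned to mm10 with STAR 2.6.0c, and uniquely aligned proper pairs (same strand) over nuclear genes were counted with featureCounts (Subread 1.6.2). Reads shared by near-identical genes are thereby lost. The deposited log2 values of a variance-stabilizing transformation by the authors, made with DESeq2, were not used. Columns were linked to groups by their names. The number of per-sample columns left unused was 0.

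The analysis used edgeR 4.0.16 (R 4.3.3), after filterByExpr (16270 genes kept, those left out holding 0.0906% of counts) and TMM scaling. Quasi-likelihood F tests were fitted across all genes, with Benjamini-Hochberg adjustment over all genes tested and a threshold of 0.05. Genotype and diet came from a model of both, and the other comparisons from 1 mean per group. Log2 CPM used a prior count of 2. Single values were compared by 2-sided exact permutation. Of 55450 gene IDs, 99.38% matched GENCODE M21 (build GRCm38), the source of symbols and positions. The alternatives were median-of-ratios factors, no filter, DESeq2 1.42.0, fits of only the 2 groups compared and leaving out each library. Steps were tested on simulated data, where 74.2% of genes changed by 0.6 log2 units by genotype were called, and 38.7% for ERTU in Gαq. Over all fold sizes these runs made 9 and 8 false calls, and a run by genotype with nothing changed made 0.

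The members and gene lists were chosen with earlier results of these data known. Per-library values are given for the 3 members of each role with the smallest p by genotype and any called elsewhere. They are also given for Ifit1, added after its values were seen. Results of tested pathway genes are given by name where called by genotype, although the plan was up to 3 of each list with the smallest p, called or not. Of the pathway lists, 1 gene is not reported here and was left out of the lists' counts.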

Additional observations from a re-analysis of the deposited data

Results flagged for a closer look

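In 7 of the 140 groups of 4 or 5 libraries formed by the 35 members, 1 library stood far from the rest (Dixon's ratio of the gap to the range above its 95% critical value), and 7 are expected by chance, since chance marks about 1 in 20 groups. The higher ones were Ifit2 in Gαq ERTU 16 (63.4 CPM against 48.8 to 50.8, ratio 0.862), Ifit1 in WT ERTU 14 (7.13 CPM against 2.69 to 3.93, ratio 0.721), Gbp3 in Gαq ERTU 17 (15.5 CPM against 10.5 to 11.02, ratio 0.901), and Oas2 and Rsad2, both in WT ERTU 11 (10.9 CPM against 7.63 to 8.44, ratio 0.751, and 25.7 CPM against 17.7 to 19.4, ratio 0.788). The lower ones were both in WT CD 1, Eif2ak2 (19.0 CPM against 26.7 to 28.0, ratio 0.857) and Igtp (7.21 CPM against 14.1 to 14.8, ratio 0.917). No member moved one way with ERTU in all WT libraries and the other way in all Gαq libraries.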

How the results depend on the processing

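Median-of-ratios factors, no filter on low counts, the Wald test of DESeq2 and fits of only the 2 groups compared called the same members as reported in every comparison where they were run. Leaving out each library in turn gave 2 to 3 members called by genotype, 1 to 2 on CD, 1 to 2 on ERTU and 0 for diet, ERTU in WT, ERTU in Gαq and the interaction. Ifit2 passed in all of these, with an adjusted p of at most 4.38e-05 by genotype, 0.0131 on CD and 0.0094 on ERTU. Irf8 passed in all by genotype (at most 0.00502), and was lost on CD without WT CD 1, WT CD 4 or Gαq CD 7. Ifit3 and Gbp7 passed only with the libraries named in the report left out. The members below 0 by diet numbered 27 to 33 and their median ran from -0.16 to -0.10. By genotype 26 of the 35 members kept their direction in all 21 settings, and the largest difference among the others was 0.064. No call reversed. No paired analysis was possible because the numbers of the table's columns run across the whole series and could not be linked to the replicate numbers of the labels. Counting error is largest relative to level for Dhx58, Usp18, Oas1a, Isg15 and Ifi44, at 16 to 82 reads a library.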
